A study of Mus musculus with 5 samples.

Results

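Pax6, Sox2, Gata4, Gata6 and Foxa2 are regulators of tissues other than blood, and their methylation was read in 5 libraries of mouse bone marrow cells. The members were chosen by name and by fixed stretches of the mm9 genome around each gene, not by a measured value. The stretches ran from 105505 to 105545 kb of chromosome 2 for Pax6, from 34545 to 34556 kb of chromosome 3 for Sox2, from 63814 to 63894 kb of chromosome 14 for Gata4, from 11048 to 11089 kb of chromosome 18 for Gata6, and from 147864 to 147877 kb of chromosome 2 for Foxa2. They held 944 CpGs covered in at least 1 library and 845 covered in all 5, of 1029293 autosomal CpGs covered in all 5. Of the 845, 161 lay in the Pax6 window, 104 in the Sox2 window, 232 in the Gata4 window, 215 in the Gata6 window and 133 in the Foxa2 window.

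The libraries were made from LSK cells, the Lin- Sca1+ cKit+ bone marrow fraction that holds blood stem cells and multipotent progenitors, of mice on a C57BL/6 background. For 2 libraries the title reads KO while the genotype label reads heterozygous, so they are called targeted here without a number of targeted alleles, and the other 3 are wild-type. The targeted gene is not reported here, and their labels give neither a treatment nor an age. It is not told whether each library came from its own animal. The p-values therefore reflect the spread between these 5 libraries alone, and that spread may be technical. The files hold methylation and no expression, so neither the sorted cell type nor the silence of the 5 genes in these cells could be checked.

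CpG methylation is the addition of a methyl group to the cytosine of a CG pair, and most CG pairs in mammalian DNA carry it. CpG islands, the CG-rich stretches at many gene starts, are the main exception, and those of developmental regulators are known to stay largely free of methylation also in tissues where the gene is off, often under Polycomb complexes. Pax6 is a paired-box and homeobox factor of eye, brain and endocrine pancreas, and Sox2 is an HMG-box factor of pluripotent cells and neural progenitors. Gata4 and Gata6 are zinc-finger factors of heart and endoderm, and Foxa2 is a forkhead pioneer factor of endoderm, node and floor plate.

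The assay, enhanced reduced representation bisulfite sequencing, reads CpGs near cuts of the enzyme MspI, which cuts at CCGG, a motif that reads the same on both strands. The RefSeq promoter table (GRCm38.p6) matched 3 of the 5 genes, Pax6, Sox2 and Foxa2, with 6 starts. Of these, 5 starts could be placed in mm9, each at the only offset within its window at which all of at least 5 measured CpGs fell on a CG of the sequence. In the 250 bases upstream, the upstream Pax6 start has 15 CG pairs and 4 CCGG, the Sox2 start 27 and 3, and the upstream Foxa2 start 6 and 1. Over all 32851 promoters of the table the median was 6 CG pairs, and 47.1% held at least 1 CCGG. The 3 sequences are shown because measured CpGs lie within them. Capitals mark the CG pairs measured in all 5 libraries, and each sequence runs 5′ to 3′ on the strand of its gene up to the base before the start, at chr2:105508803-105509052 (plus strand), chr3:34548667-34548916 (plus strand) and chr2:147872706-147872955 (minus strand) of mm9.
Pax6, upstream start: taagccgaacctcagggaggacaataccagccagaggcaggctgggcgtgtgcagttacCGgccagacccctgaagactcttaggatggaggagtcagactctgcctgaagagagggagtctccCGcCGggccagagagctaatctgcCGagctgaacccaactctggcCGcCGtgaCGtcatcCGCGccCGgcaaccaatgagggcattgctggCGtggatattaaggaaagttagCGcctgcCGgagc
Sox2: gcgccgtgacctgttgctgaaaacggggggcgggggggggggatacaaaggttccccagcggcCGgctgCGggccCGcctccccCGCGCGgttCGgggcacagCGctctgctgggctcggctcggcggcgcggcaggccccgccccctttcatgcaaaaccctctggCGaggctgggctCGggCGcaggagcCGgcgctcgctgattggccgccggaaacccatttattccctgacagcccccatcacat
Foxa2, upstream start: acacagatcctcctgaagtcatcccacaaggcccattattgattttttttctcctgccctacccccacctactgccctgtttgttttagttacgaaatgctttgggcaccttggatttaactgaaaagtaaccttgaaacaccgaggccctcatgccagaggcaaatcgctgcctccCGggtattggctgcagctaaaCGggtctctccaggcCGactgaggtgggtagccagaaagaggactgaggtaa

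At the measured CpGs near these gene starts methylation was low in every library, with no single value above 10.4%. Here and below, a pair of levels is for targeted libraries 1 and 2 in that order, and the values after "against" are for wild-type libraries 1, 2 and 3. The 12 CpGs capitalised in the Sox2 sequence lay at -187 to -58 bp from the start (negative is upstream). Their mean level was 0.321% and 0.141% against 1.11%, 0% and 0.281%. The groups overlapped, 5 of the 12 CpGs had no methylated read in any library, and each CpG had 43 to 105 reads per library. Around the upstream Pax6 start, at position 105509053, 16 CpGs were measured from 250 bases before to 50 bases after it. Their mean was 3.18% and 1.32% against 2.34%, 1.65% and 2.92%, and single CpGs averaged 0.116% to 5.87%. The downstream Pax6 start, at 105522620, had 5 measured CpGs, from -171 to -89 bp. Their mean was 3.06% and 2.53% against 3.01%, 4.06% and 3.53%.

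Foxa2 lies on the minus strand, and 2 of its starts were placed. Around the upstream one, at 147872705, 8 CpGs averaged 1.77% and 2.65% against 2.65%, 0.902% and 2.51%. The downstream one, at 147871684, had 9 measured CpGs, from -245 to -204 bp. Their mean was 0% and 0.137% against 0.335%, 0.144% and 0%, with 134 to 326 reads per CpG. The 2 groups overlapped at each of the 5 placed starts.

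**Figure D1:**
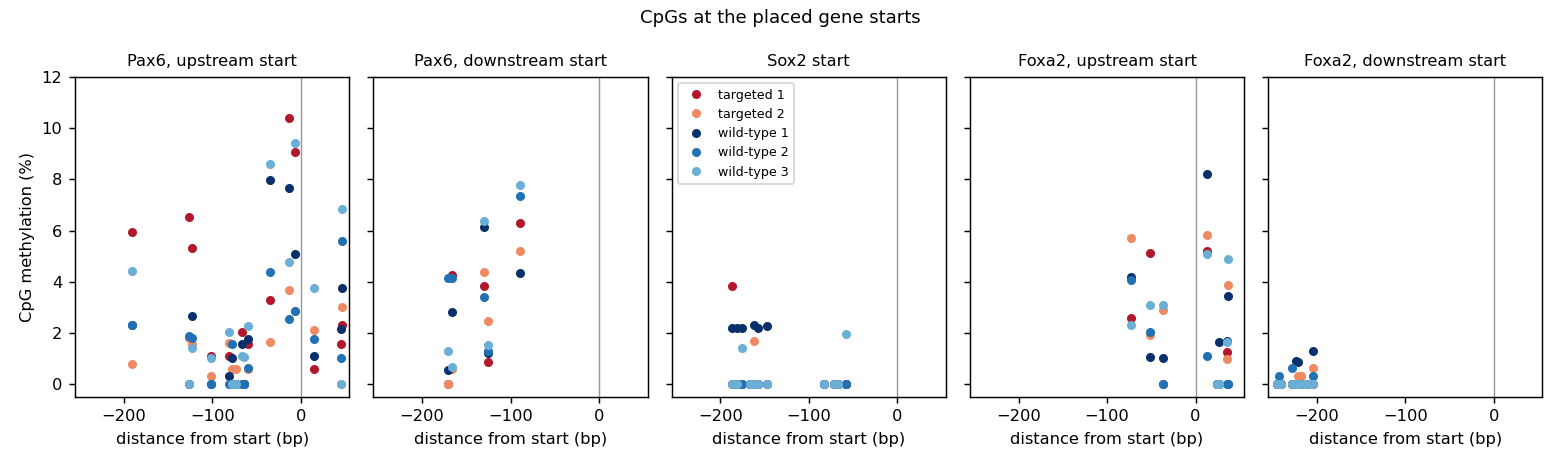
Methylation of each measured CpG (percent, y axis) against its distance from the 5 placed starts of Pax6, Sox2 and Foxa2 (bp, x axis, negative is upstream, grey line at the start). Each point is 1 CpG in 1 library. No point is above 10.4%, and the Sox2 and downstream Foxa2 starts lie lowest.

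Across the whole windows the level, the mean over a window's CpGs, was low in every library. Sox2 was the lowest of the 5 genes, with 3.09% and 2.41% against 2.49%, 2.58% and 2.52%. Pax6 followed with 6.43% and 5.35% against 5.26%, 4.93% and 4.94%. Foxa2 had 7.41% and 6.12% against 6.02%, 5.51% and 5.47%. This order held in each library, with Sox2 below Pax6 and Pax6 below Foxa2. Gata6 had 7.61% and 6.92% against 6.50%, 6.43% and 6.24%. Gata4 was the highest, with 9.59% and 8.94% against 9.01%, 8.73% and 8.50%. In wild type the means were 2.53% ± 0.0477 (SD, n = 3) for Sox2, 5.04% ± 0.189 for Pax6, 5.67% ± 0.309 for Foxa2, 6.39% ± 0.131 for Gata6 and 8.75% ± 0.257 for Gata4, and no 2 neighbours in this order overlapped in their wild-type libraries. The windows differ in length and in the CpGs the assay reached, so the order is one of these measured CpGs.

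All 5 windows were below the other 1028448 autosomal CpGs, whose mean was 35.1% and 34.4% against 34.3%, 34.2% and 34.2%. The mean difference over the 5 libraries was -31.8 percentage points for Sox2, -29.1 for Pax6, -28.3 for Foxa2, -27.7 for Gata6 and -25.5 for Gata4. Each window was lower in 5 of 5 libraries, and the exact two-sided sign-flip test gave p = 0.0625 for each of the 5, the smallest it can give with 5 libraries.

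Few window CpGs were highly methylated. By the mean of the 5 libraries, 93.3% of the window CpGs were under 20%, 5.44% were at 20 to 80% and 1.30% were over 80%. Of the other autosomal CpGs 61.1%, 6.68% and 32.2% were in these classes. All 104 Sox2 CpGs were under 20%, as were 154 of 161 for Pax6, 196 of 215 for Gata6, 124 of 133 for Foxa2 and 210 of 232 for Gata4. Of the 11 CpGs over 80%, 7 belonged to Gata4, 2 to Pax6 and 2 to Gata6.

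**Figure D2:**
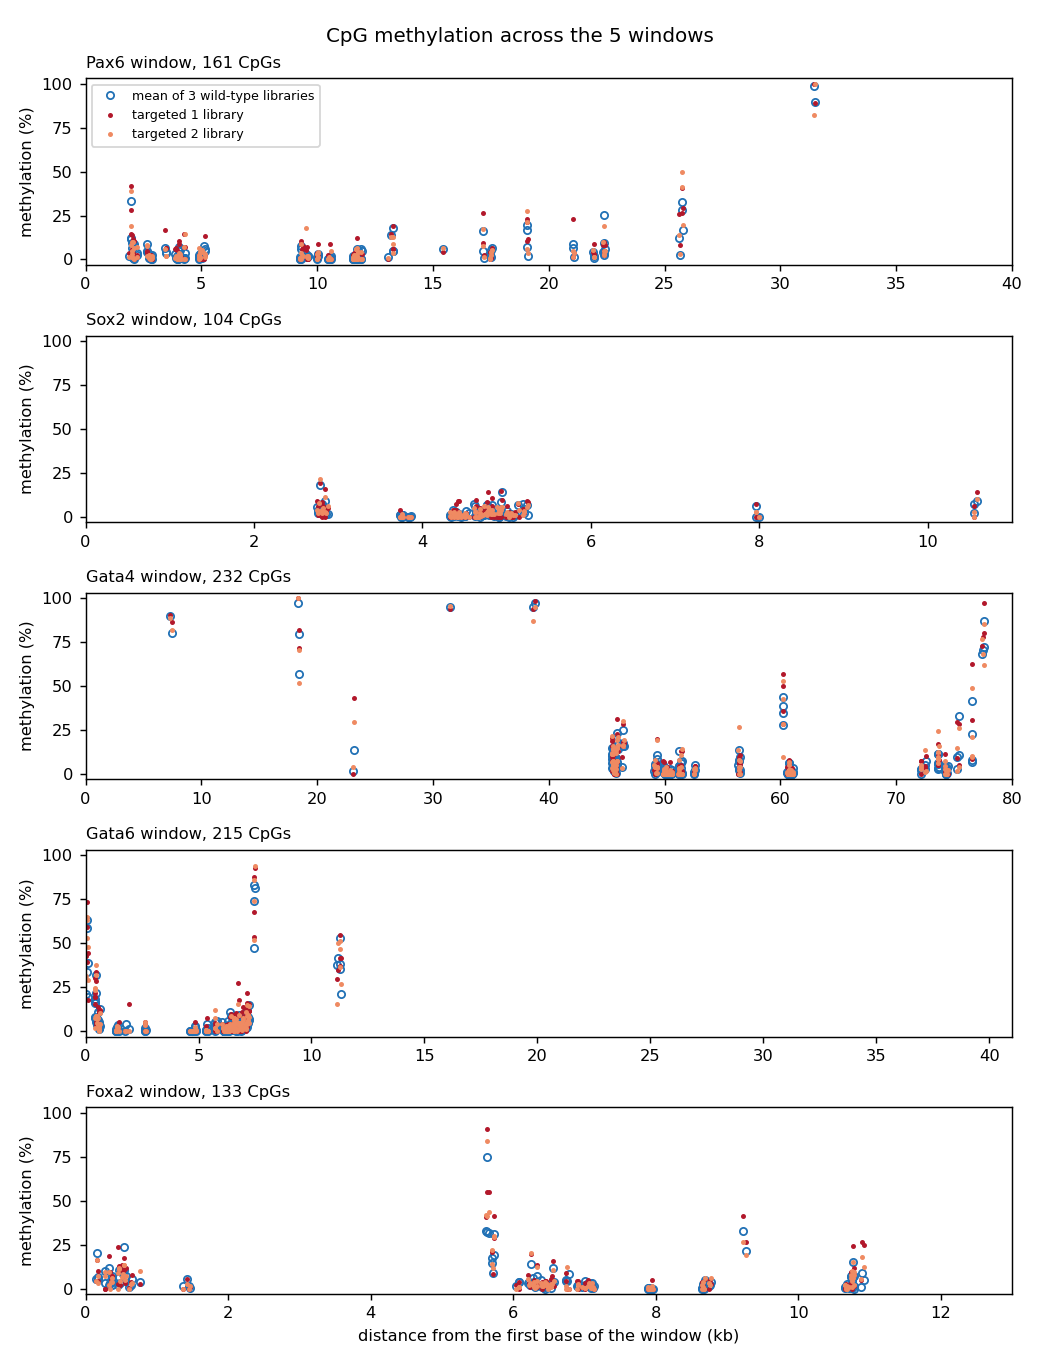
Methylation of each CpG (percent, y axis) against its distance from the first base of each window (kb, x axis). Open circles are the mean of the 3 wild-type libraries, and filled points are the 2 targeted libraries. All 5 windows hold long stretches near 0, and CpGs over 80% lie outside these stretches, far from them in the Pax6 window and just past the edge in the Gata6 window.

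The low CpGs formed runs, taken as consecutive covered CpGs under 20% in the mean of the 5 libraries. The DNA between covered CpGs was not measured. The widest gap between neighbouring covered CpGs inside a run was 4087 bp for Pax6, 3738 bp for Gata4, 2709 bp for Sox2, 1938 bp for Gata6 and 749 bp for Foxa2. The Pax6 run held 137 CpGs over 17099 bp, from 105506964 to 105524061, and took in both placed starts, reaching from 2.089 kb upstream to 15.008 kb downstream of the first. In single libraries it held 123 to 146 CpGs. It ended at 36.2% on one side and 20.7% on the other. The Sox2 run held all 104 covered CpGs over 7838 bp, from 1.165 kb upstream to 6.671 kb downstream of the start, so its ends were not seen. In targeted library 2 it held 99, because CpG 34547782 was at 21.6% there and at 17.6% to 19.2% in the other 4.

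The Gata6 run held 190 CpGs over 6740 bp, from 11048509 to 11055247. Targeted library 1 had a shorter one of 145 CpGs, ended by 1 CpG at 27.3%, and the other 4 libraries had 189 or 190. The right edge was sharp: CpG 11055247 was at 8.7% to 21.6% over the 5 libraries, and CpG 11055447, the second CpG past it, at 81.1% to 87.8%. Beyond this edge lay 6 CpGs at 26.4% to 52.9%, after which 29.706 kb of the window had no CpG covered in all 5 libraries. The left edge fell near the start of the window, where 9 CpGs between 11048018 and 11048479 were partly methylated, the highest at 65.9%.

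Gata4 was split into several low stretches, the longest with 86 CpGs over 10050 bp, from 63860456 to 63870504, held between CpGs at 26.9% and 36.4%. In single libraries it held 78 to 90 CpGs. Methylated CpGs lay far to each side of it. The 3 CpGs of the tile from 63832001 to 63833000 averaged 84.5% and 74.2% against 75.6%, 77.9% and 80.2%. The 4 CpGs from 63891001 to 63892000 averaged 82.0% and 73.2% against 77.0%, 69.9% and 76.5%. Neither tile separated the groups.

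The Foxa2 run held 70 CpGs over 2739 bp, from 147870040 to 147872777, and covered both placed starts. It reached 0.072 kb upstream of the first. The next covered CpGs, at 147873224 and 147873266, were at 32.96% and 21.8%. Past these, the 21 CpGs from 147874001 to 147875000 were low again, at 3.72% ± 0.500 (SD, n = 3) in wild type. At the other edge, past the downstream end of the run, 6 CpGs between 147869622 and 147869733 were partly methylated. Among them CpG 147869640, singled out after its values were seen, was at 90.8% and 84.1% against 77.8%, 70.9% and 75.9%. Both targeted libraries were the highest there, as at 10.6% of all autosomal CpGs tested.

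Run lengths moved with the level that ended a run. With a limit of 10% in place of 20%, the Sox2 run spanned 2081 bp with 72 CpGs, the Gata4 run 2091 bp with 59, the Pax6 run 11061 bp with 119, the Gata6 run 6084 bp with 132 and the Foxa2 run 2204 bp with 40.

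Low did not mean 0. Among CpGs under 20%, the wild-type mean was 3.14% ± 0.240 (SD, n = 3) for Pax6, 2.53% ± 0.0477 for Sox2, 3.502% ± 0.293 for Gata4, 2.82% ± 0.137 for Gata6 and 3.66% ± 0.228 for Foxa2. The 628748 other autosomal CpGs of this class stood at 0.935% to 1.22% over the 5 libraries. The lowest of the 25 window values was 2.41%, for Sox2 in targeted library 2, so the 2 sets did not overlap. Each gene was above the other autosomal CpGs in 5 of 5 libraries (exact sign-flip test, two-sided, p = 0.0625, the smallest possible), a comparison added after the values were seen. Only 62 of the 845 window CpGs had no methylated read in any library, which is 3.73% of the Pax6, 6.73% of the Sox2, 9.91% of the Gata4, 9.77% of the Gata6 and 3.76% of the Foxa2 CpGs, against 26.4% of the other autosomal CpGs. A count of 0 is less likely at greater depth. Median depth was above that of the other autosomal CpGs in every library for Pax6, Gata4, Gata6 and Foxa2, and mixed for Sox2. The part of depth in these shares was not tested.

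**Figure D3:**
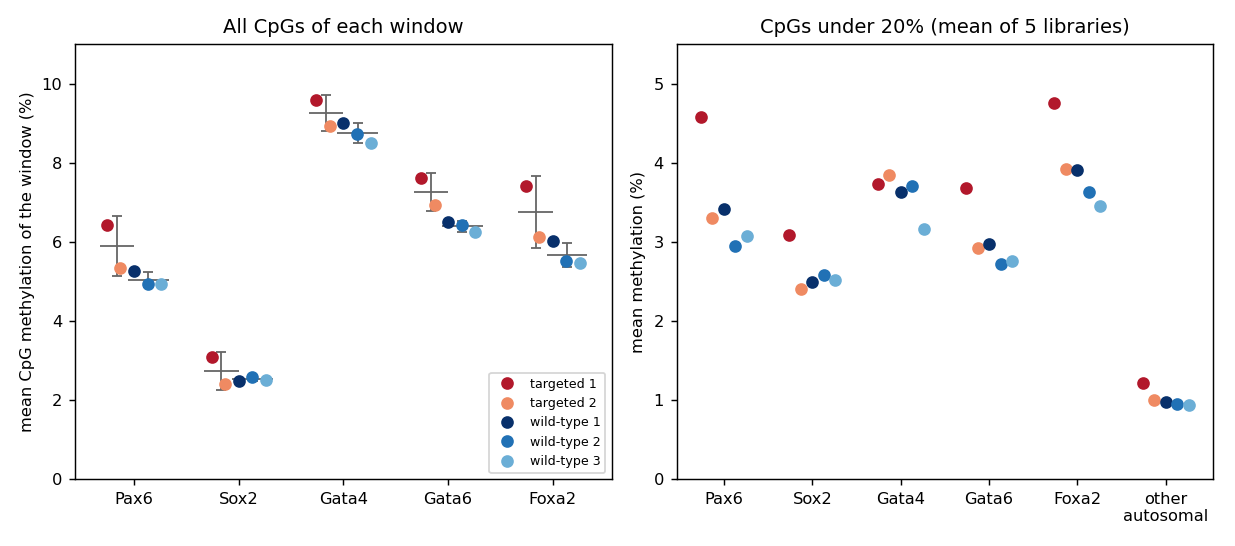
Left, mean CpG methylation of each window (percent) in each library, with a grey bar at the group mean and whiskers of ± 1 SD. Right, the mean over CpGs under 20%, for the 5 windows and the other autosomal CpGs. All 25 window values on the right lie above the 5 autosomal ones, and targeted library 1 is the highest of the 5 in each window on the left.

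The windows' position relative to the genome varied with the number of covered CpGs per tile. This number depends on what the assay reached and is not the CpG density of the DNA. Windows were cut into tiles of 1000 bp with at least 3 covered CpGs, and each tile's wild-type mean was set beside all autosomal tiles with as many covered CpGs. In all 24 window tiles with 3 to 9 CpGs the level was below the genome's median, which was 83.5% to 93.0%. Of these, 22 lay under the lower quartile, and their own median was 7.47%. Among the lowest were the 4 CpGs of Gata6 from 11050001 to 11051000 at 0.670% ± 0.117 (SD, n = 3) in wild type, the 5 of Gata4 from 63875001 to 63876000 at 1.02% ± 0.928, and the 5 of Gata4 from 63866001 to 63867000 at 1.78% ± 0.132. Most autosomal tiles with so few covered CpGs were methylated.

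The tiles with the most covered CpGs stood on the other side. All 7 window tiles with at least 30 CpGs were above the genome's median of 0.149%, and 6 were above the upper quartile of 0.643%. Gata6 had the tile with the most, 110 CpGs from 11054001 to 11055000, at 2.73% and 2.47% against 2.46%, 2.35% and 2.36%. Sox2 had 60 CpGs from 34549001 to 34550000, just past its start, at 2.77% and 1.95% against 2.02%, 2.15% and 2.40%. The highest of the 7 was a Gata4 tile of 45 CpGs from 63859001 to 63860000, at 7.56% and 7.81% against 7.09%, 8.51% and 7.13%. It stood at the 96.2 percentile of the 7931 autosomal tiles with at least 30 covered CpGs. The exception was the Gata4 tile of 41 CpGs from 63864001 to 63865000, at 0.626% in wild type, just under the upper quartile.

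Tiles of 10 to 29 CpGs were closer to the genome, with 14 of 20 above the median for their number of covered CpGs and a median percentile of 55.9. The highest in this range were in Gata6. Its tile of 29 CpGs from 11048001 to 11049000, at the left edge of the run, had 19.1% and 18.0% against 16.1%, 14.7% and 14.1%. Its tile of 21 CpGs from 11055001 to 11056000, across the right edge, had 22.8% and 19.98% against 19.2%, 19.5% and 18.5%. In both, each targeted library was above each wild-type library, as in 17.5% of all autosomal tiles tested. Their adjusted p was 0.880 and 0.806 in the edgeR test described below. The most methylated tile with at least 10 CpGs was lower in Pax6 and Sox2, at 3.28% ± 0.134 (SD, n = 3, from 105507001) and 4.99% ± 0.295 (from 34547001) in wild type. For Foxa2 it was the tile from 147864001, with 27 CpGs at 6.92% ± 0.654.

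**Figure D4:**
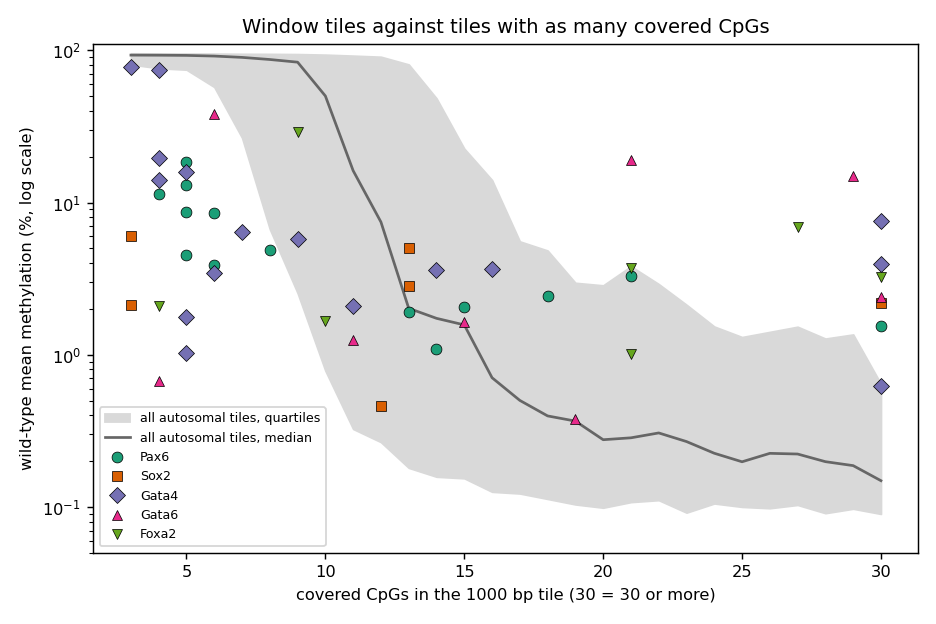
Wild-type mean methylation of each 1000 bp window tile (percent, log axis) against its number of covered CpGs (30 stands for 30 or more). The line is the median and the band the quartiles of all autosomal tiles with as many CpGs. Window tiles with 3 to 9 CpGs lie below the line, and all 7 with 30 or more lie above it.

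The targeted and wild-type libraries were then compared, the contrast the study's groups give. In each window the targeted mean was above the wild-type mean, by 0.216 to 1.10 percentage points. For Foxa2 it was 6.77% ± 0.907 (SD, n = 2) against 5.67% ± 0.309 (SD, n = 3), for Gata6 7.26% ± 0.485 against 6.39% ± 0.131, and for Pax6 5.89% ± 0.762 against 5.04% ± 0.189. In these 3 windows both targeted libraries were above all wild-type libraries, with an exact two-sided permutation p of 0.1 each, the smallest that 2 against 3 libraries allow. With CpGs weighted by their reads the difference was 0.379 points for Foxa2, 0.527 for Pax6 and 0.806 for Gata6. The exact permutation p was then 0.5, 0.5 and 0.2, no longer the smallest possible in any of the 3. Gata4, at 9.26% ± 0.459 against 8.75% ± 0.257, gave an exact p of 0.3, and Sox2, at 2.75% ± 0.481 against 2.53% ± 0.0477, gave 0.6. The design cannot reach 0.05, and none of these 5 differences passed. The other autosomal CpGs differed in the same direction, by 0.549 points. There too both targeted libraries were above all wild-type libraries, with the same exact two-sided permutation p of 0.1.

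Much of the excess sat in 1 library. Targeted library 1 was the highest of the 5 in all 5 windows, while targeted library 2 was above the wild-type libraries in 3 and the lowest of all for Sox2. Without targeted library 1, over the CpGs covered in all of the remaining 4 libraries, the difference was 0.310 points for Pax6, 0.177 for Gata4, 0.531 for Gata6, 0.632 for Foxa2 and -0.125 for Sox2. Without targeted library 2 it was 1.39 points for Pax6, 0.839 for Gata4, 1.22 for Gata6, 1.98 for Foxa2 and 0.556 for Sox2. Targeted library 1 stood apart genome-wide: the other autosomal CpGs at 20 to 80% averaged 58.3% in it and 51.4% to 52.5% in the other 4. The 46 window CpGs of that class averaged 44.6% and 40.6% against 38.9%, 37.2% and 37.9%. The excess of targeted library 1 over the wild-type mean was 6.60 points there and 6.50 points in the rest of the autosomes. In the other classes its excess in points was larger in the windows. It was 0.799 beside 0.266 points for the 788 window CpGs under 20%. The wild-type mean of this class was also higher in the windows, 3.16% beside 0.952%, and in proportion to it the excess was not larger. For the 11 window CpGs over 80% it was 3.28 beside 0.953 points, with a wild-type SD of 0.954 (n = 3) in so few CpGs. For targeted library 2 the excess was 0.171 beside 0.0484 points under 20%, 2.63 beside 0.706 at 20 to 80% and 0.0507 beside 0.369 over 80%. The median depth of targeted library 1, 88 reads per CpG, was the lowest of the 5, the others having 104 to 113. The part of depth in these values was not tested.

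No tile of the 5 genes passed the test of targeted against wild type. Of 51 window tiles tested with edgeR's quasi-likelihood test, 0 reached an adjusted p under 0.05 with a difference of at least 10 points, beside 0.0144% of all 90338 autosomal tiles. At an unadjusted p under 0.05 there were 3 of 51, 5.88%, beside 6.32% of all tiles. With limma 0 were called, beside 0% of all tiles, and 2 of 51, 3.92%, had an unadjusted p under 0.05, beside 6.48% of all tiles. In edgeR all 3 were higher in the targeted libraries, as were 5.33% of all tiles. The difference of any size was positive in 38 of 51, 74.5%, beside 65.4% of all tiles. In 13 tiles, 25.5%, both targeted libraries were above all wild-type libraries, beside 17.5% of all tiles, and in 0 they were below, beside 5.43%. Targeted library 1 was the highest in 30 of 51, 58.8%, beside 35.5% of all tiles.

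The 3 tiles with an unadjusted p under 0.05 lay in Gata6, Pax6 and Gata4. In Gata6 the 4 CpGs from 11050001 to 11051000 had 2.26% and 2.21% against 0.773%, 0.694% and 0.543%. In Pax6 the 5 CpGs from 105530001 to 105531000, beyond the run, had 26.1% and 25.6% against 21.2%, 17.0% and 17.4%. In Gata4 the 7 CpGs from 63887001 to 63888000 had 8.44% and 12.3% against 6.90%, 7.28% and 5.11%. In none of the 3 did the groups overlap, but the tiles were picked by their p on this same contrast, so this is no added support. Each had an adjusted p of 0.790 by edgeR. For Foxa2 the smallest p was in the partly methylated tile of 9 CpGs from 147869001 to 147870000, at 40.2% and 35.2% against 32.8%, 26.4% and 28.5%, a difference of 8.44 points with an adjusted p of 0.802 by edgeR. For Sox2 it was the tile of the gene start, from 34548001 to 34549000, which holds the same 12 CpGs, with an adjusted p of 0.897 by edgeR.

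Single CpGs gave the same count. Of the 783 window CpGs with both states, 0 reached an adjusted p under 0.05 with a difference of at least 25 points in edgeR, beside 0.00872% of 756732 autosomal CpGs tested. At an unadjusted p under 0.05 there were 28, 3.58%, beside 2.97% of all. With limma 0 were called, beside 0.00476% of all, and 45, 5.75%, had an unadjusted p under 0.05, beside 5.24% of all. Of the 28, 23 were higher in the targeted libraries, 2.94% beside 2.29% of all, and 5 were lower, 0.639% beside 0.679%. A positive difference of any size was seen at 443, 56.6% beside 55.4% of all. Both targeted libraries were above all wild-type libraries at 94 CpGs, 12% beside 10.6% of all, and below at 39, 4.98% beside 4.99%.

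The CpGs with the smallest p per gene rested on 0 to 22 methylated reads per library. Foxa2 CpG 147870450, inside the run, had 9 of 211 and 6 of 229 methylated reads in the targeted libraries and 0 of 221, 0 of 232 and 0 of 181 in the wild-type libraries. These are 4.27% (95% Wilson interval 2.26 to 7.91) and 2.62% (1.21 to 5.60) against zeros that allow up to 1.36%, 1.29% and 1.66%. Sox2 CpG 34549678 had 7 of 144 and 5 of 238 against 0 of 254, 0 of 226 and 0 of 132, or 4.86% (2.37 to 9.69) and 2.10% (0.901 to 4.82) against zeros that allow up to 1.18%, 1.33% and 2.27%. The limit for a zero is 3 reads over its depth. Reads carry no molecular identifiers, so these intervals and limits hold only counting error. Gata6 CpG 11054861 had 3.10% and 4.55% against 0%, 0% and 0.581%, and Gata4 CpG 63887651 had 7.97% and 16.2% against 3.65%, 4.41% and 3.06%. Pax6 CpG 105522449 went the other way, with 0% and 0% against 0.556%, 4.14% and 1.31%. All 5 had an adjusted p of 0.876 by edgeR.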

How the data were processed

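Enhanced reduced representation bisulfite libraries (MspI fragments of 150 to 400 bp, single reads of 50 bases, per the labels' protocols) were mapped to mm9 (NCBIM37) by Bismark (submitters' processing notes), its version being not given in the sources used here. Per the file headers, the deposited tables list cytosines of CpGs strand by strand, with a coverage count and the percent of it read as C and as T, not normalized. The lowest deposited coverage was 10 reads. A change of C to T in the genome reads as unmethylated.

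Methylated read counts were recovered as percent times coverage, within 0.01 of a whole number for 99.97% of entries. Strands were merged, the highest 0.1% of coverage per library was left out, and autosomal CpGs covered in all 5 libraries were kept. Coverage summed over all strand entries was 122015958 to 151634492, where a read is counted at each CpG it covers. Median depth was 88 to 113 reads per CpG. A window's or tile's level is the mean over its CpGs. All autosomal tiles (90338) and CpGs (756732) with both states were fitted with edgeR 4.0.16 (quasi-likelihood, methylated and unmethylated counts, 1 factor per library, common dispersion) and Benjamini-Hochberg adjusted; limma 3.58.1 on log2 ratios was an alternative. R 4.3.3 and Python 3.11.15 were used. The fits were tested on simulated data.

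Alternatives were other coverage limits, weightings, tile sizes, thresholds and designs, and leaving out each library. Levels from summed counts were added after seeing the data. Named were, per gene, the tile and CpG with the smallest p, tiles with an unadjusted p under 0.05, the most methylated tile with at least 10 CpGs and the tile of the gene start. Members and lists were chosen with earlier results of these data known. An mm9 genome and annotation were not used here, so exons, introns and other regulators were not analysed here.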

Additional observations from a re-analysis of the deposited data

How the results depend on the processing

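Each window's lower level than the other autosomal CpGs kept its direction under all 10 alternatives run for it, although weighting tiles of 1000 bp equally widened it, to -67.1 points for Sox2 and -43.4 for Gata4, and weighting by reads narrowed it, to -23.2 and -19.97. The difference between targeted and wild type kept its direction under all 11 alternatives in the Pax6, Gata4, Gata6 and Foxa2 windows, but not its size. Weighted by reads it was 0.379 in place of 1.10 points for Foxa2 and 0.527 in place of 0.849 for Pax6, and the groups overlapped in both and in Gata6. They also overlapped for Pax6 with at least 20 reads per CpG (0.734) and for Foxa2 over tiles (1.53). Leaving out each library in turn, over CpGs covered in the remaining 4, turned these differences: -0.125 to 0.565 for the Sox2 window, -0.463 to 0.0905 for the Sox2 tile of the gene start, -0.0280 to 0.290 for the Pax6 tile from 105507001, -0.136 to 0.575 for the Gata4 tile from 63859001 and -0.0300 to 1.11 for the Foxa2 tile from 147864001; the cause was not tested. With a limit of 10% the Foxa2 run fell from 70 to 40 CpGs, and in length the Sox2 run went from 7838 to 2081 bp, the Gata4 run from 10050 to 2091 bp and the Pax6 run from 17099 to 11061 bp. The count of tiles and of CpGs called was 0 under every alternative run. Replicate numbers 1 and 2 occur in both groups. Deviations from the group mean correlated at 0.0127 and 0.0314 for same-numbered libraries over 90673 tiles, and at 0.0192 for targeted library 1 with wild-type library 3. The deviations of the 2 targeted libraries mirror each other, so these are not separate checks and cannot decide whether the numbers pair libraries. In the main fits the numbers were not taken as pairs. With a replicate block 0 tiles and 0 CpGs were called, and the differences were 0.798 (Pax6), 0.210 (Sox2), 0.391 (Gata4), 0.801 (Gata6) and 1.002 (Foxa2). The number of libraries limits every test here, and CpGs away from CCGG were not measured.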
